A study of Mus musculus with 16 samples.

Results

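Among 16 RNA libraries made from mouse sperm, 8 were rich and 8 were poor in transcripts of meiosis, the pair of cell divisions through which the testis turns a diploid spermatocyte into haploid spermatids. The sides were set by the measured values themselves. In each library the counts of 31 marker genes of meiotic prophase were scaled to the library's total of gene counts, as CPM, and summed, and a library was called rich at a sum of at least 850 CPM and poor below it. The choice names 32 markers and gives 31, all of which have a row in the count table. Of the rich libraries 5 came from the high-fat diet (HFD) and 3 from the control diet (CD), and of the poor ones 3 came from HFD and 5 from CD.

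The study compared the sperm RNA of 8 HFD and 8 CD males. All males entered at 3 weeks of age and ate a high-fat, high-calorie diet, modified from D12492, or its control for 9 weeks, after which motile sperm were isolated, lysed with sonication and extracted for total RNA. After DNase, 2 ng of each RNA was amplified to cDNA with the Ovation RNA Seq V2 kit, and 250 ng of cDNA entered the library. The strain and genotype of the mice are not given in the labels. The labels number the samples within a diet and do not say that they came from separate animals beyond the 8 mice per diet, so the spread between libraries may in part be technical.

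Spermatocytes pair and recombine their chromosomes along the synaptonemal complex (the Sycp and Syce proteins), with sister chromatids held by meiotic cohesins (Rec8, Stag3, Smc1b) and breaks repaired by Dmc1 and the Msh proteins. At the same stage the piRNA pathway (Piwil1, Piwil2, Mael, Ddx4 and Tudor proteins) silences transposons, the transcription factor A-MYB (Mybl1) drives many pachytene genes, and the unpaired X and Y are transcriptionally shut down. Mature sperm transcribe next to nothing and shed most of their cytoplasm, so the RNA of a sperm preparation is small in amount and can also come from other cells of the testis and epididymis. In bulk RNA, fewer cells of a type and less RNA per cell cannot be told apart.

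Promoters of the genes that set the sides were searched for the core motif of MYB factors, and 3 windows that hold it are printed. Each is the 300-base RefSeq window on GRCm38.p6, written 5′ to 3′ on the gene's strand from 250 bases before the annotated start, with capitals for that motif, TAACNG, on either strand. Mael lies at chr1:166238695-166238994 on the minus strand, Stag3 at chr5:138280259-138280558 on the plus strand, and the window of Ldhc, a gene outside the markers, at chr7:46861013-46861312 on the plus strand is 1 of its pair in the table.
Mael promoter: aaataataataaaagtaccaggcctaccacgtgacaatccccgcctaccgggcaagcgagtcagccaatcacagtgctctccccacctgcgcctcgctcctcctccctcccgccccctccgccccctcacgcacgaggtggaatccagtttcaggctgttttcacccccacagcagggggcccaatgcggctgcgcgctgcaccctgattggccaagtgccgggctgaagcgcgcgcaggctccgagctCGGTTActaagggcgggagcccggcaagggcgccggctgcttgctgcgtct
Stag3 promoter: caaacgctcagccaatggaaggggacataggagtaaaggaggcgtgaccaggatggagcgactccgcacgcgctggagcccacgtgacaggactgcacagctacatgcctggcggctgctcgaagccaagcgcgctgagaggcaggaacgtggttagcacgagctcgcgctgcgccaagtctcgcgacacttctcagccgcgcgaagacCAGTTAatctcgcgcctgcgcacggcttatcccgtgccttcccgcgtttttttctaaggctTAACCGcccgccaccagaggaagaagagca
Ldhc promoter: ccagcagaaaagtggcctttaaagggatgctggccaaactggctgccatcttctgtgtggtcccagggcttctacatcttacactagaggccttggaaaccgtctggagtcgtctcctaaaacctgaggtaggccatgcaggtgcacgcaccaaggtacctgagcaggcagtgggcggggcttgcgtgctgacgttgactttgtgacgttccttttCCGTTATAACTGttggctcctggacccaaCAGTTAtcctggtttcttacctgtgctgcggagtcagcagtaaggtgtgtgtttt
In the first window the core is read on the opposite strand, in the second on both, and in the third 3 matches stand within a short stretch, of which a pair lies end to end. The other Ldhc window, which starts at chr7:46861237, holds 1 match. Its end was found in the start of an Ldhc transcript, while the end of the printed window was not. The MYB core was in 14 of the 31 windows of marker genes (45.2%), against 23.3% of all 32851 windows and 19.9% of the 12592 windows of tested genes outside the markers. A match is a description of letters, not of binding.

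Marker sums ran from 332 CPM in CD 4 to 4702 CPM in HFD 4, a 14.2-fold range. On the poor side the order was CD 4 (332), HFD 7 (355), CD 2 (429.9), CD 7 (527), HFD 2 (614), CD 3 (700.3), HFD 5 (764) and CD 8 (786). On the rich side it was HFD 6 (876), HFD 3 (970.2), HFD 1 (1018), CD 6 (1159), CD 1 (1288), CD 5 (1429), HFD 8 (3846) and HFD 4 (4702). The sums formed a near-continuous series with no gap at the threshold: the lowest rich library stood 1.11-fold above the highest poor one. The wide gap lay higher up, where HFD 8 exceeded the next library 2.69-fold. HFD 4 and HFD 8 therefore stood apart from the other 6 rich libraries, whose sums spanned 1.63-fold, and list medians, diet counts and most gene differences are given with and without them. The assignment also depended on a single transcript: Rn45s, the ribosomal RNA precursor, took 2.31% to 24.1% of gene counts, and with it left out of the totals 10 libraries reached 850 CPM, CD 8 (1035) and HFD 5 (926) joining the rich side.

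**Figure D1:**
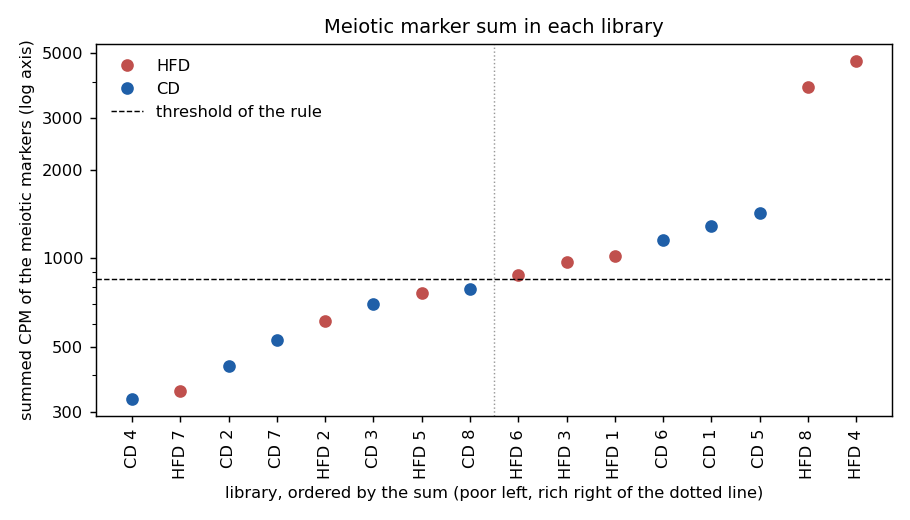
Summed CPM of the 31 meiotic markers (log axis) in each library, ordered by the sum, with HFD in red and CD in blue; the dashed line is the threshold of 850 CPM and the dotted line parts the sides. The sums climb in small steps from 332 to 1429, and HFD 8 (3846) and HFD 4 (4702) lie above a wide gap.

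Mael, a piRNA factor of the nuage, supplied 30.3% of the marker CPM summed over all libraries, followed by the synaptonemal complex gene Syce2 (11.6%) and the germ cell RNA helicase Ddx4 (6.52%). CPM grow with transcript length, so these shares do not rank the genes' molar levels, and HFD 4 and HFD 8, with the highest sums, weigh most in them. On the poor side the gene with the second highest median was Mlh3, a mismatch repair factor of crossovers, with 62.2 CPM against 46.7 for Syce2 and 24.9 for Ddx4. Mael had 243, 355 and 1787 CPM in the rich libraries (lowest, median, highest of 8) and 70, 141 and 228 in the poor ones. Stag3, a meiotic cohesin, had 48.7, 57.2 and 261 CPM on the rich side against 19.4, 26.5 and 37.8 on the poor side. Both genes separated the sides without overlap, as did Smc1b, Ddx4, Tex15 and Brdt, 6 of the 31 markers, and 25 of the 31 passed the filter on low counts. The medians of 29 markers were higher on the rich side, that of Mlh3 was higher on the poor side, and that of Dmc1 was 0 on both. The classical markers of recombination carried little of the sum: Dmc1 had 10 counts in all 16 libraries together, and Dmc1, Spo11, Tex11, Meiob, Msh4 and Msh5 did not pass the filter. These values chose the sides and are descriptions.

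All other genes were compared between the sides with diet as a term. Since the members were chosen from values in these same libraries, levels, overlap and fitted log2 differences are given with no test. The standard error (SE) printed after ± is the size of a difference divided by the square root of edgeR's F statistic. For rich minus poor it rests on the same choice of libraries and is no support for a difference. Of 13124 genes outside the markers, 236 had a higher CPM in every rich library than in any poor one (1.8%), and 5 had a lower one (0.0381%). Without HFD 4 and HFD 8 these counts were 238 (1.81%) and 8 (0.061%). In 225 of the 236, HFD 4 and HFD 8 were the highest pair of libraries, against 2579 of all 13124 genes. The fitted log2 difference was above 0 for 44.5% of all genes, above 1 for 1820 (13.9%) and below -1 for 212 (1.62%). The median over all genes was -0.08 with TMM scaling and 0.01 with gene totals alone.

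A list of genes of meiotic entry and of regulators, some of which act after meiosis, was higher on the rich side. Stra8, an entry gene listed with the spermatogonia, had at most 2.61 CPM and was not tested. The summed CPM of the 12 listed genes was 423, 573 and 2332 (lowest, median, highest) on the rich side and 254, 334 and 420.1 on the poor side, so the sides did not overlap. The median log2 difference was 1.41, and 0.70 without HFD 4 and HFD 8. Of the 12 tested genes 10 were above 0 and 2 did not overlap, against 44.5% and 1.8% of all genes. Tbpl1, a TBP-like factor needed in spermiogenesis (chr10:22703879-22731938, minus strand), had 102, 167 and 940.2 CPM on the rich side against 38.1, 66.7 and 93.6 on the poor side. Its log2 difference was 1.86 ± 0.49 (SE), and 1.08 ± 0.18 without the outlying pair. Dmrtb1, which times the step from mitosis to meiosis, had 54.9, 83.4 and 386 CPM on the rich side against 18.5, 32.7 and 41.6 on the poor side. Cpeb1, which binds RNA in germ cells and elsewhere, went the other way, with 11.1, 67.4 and 99.5 CPM on the rich side against 48.5, 81.4 and 119 on the poor side and a log2 difference of -0.55 ± 0.34, or -0.32 ± 0.21 without HFD 4 and HFD 8.

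Genes of the meiotic divisions had summed CPM of 421, 627 and 2524 in rich and 194, 299.8 and 397 in poor libraries, again without overlap. Of 24 tested genes 22 were above 0, with a median of 1.30, and 0.63 without HFD 4 and HFD 8. Hspa2, the testis heat shock protein required for CDK1 activation in spermatocytes (chr12:76404176-76406938, plus strand), had 182, 257 and 1712 CPM on the rich side against 50, 114 and 135 on the poor side. Every rich library exceeded every poor one, and HFD 4 alone was far above HFD 8 (810 CPM). Its log2 difference was 2.02 ± 0.52, and 1.19 ± 0.20 without the pair. Ccnb2, cyclin B2, also separated the sides, with 26.3, 41.6 and 94.4 CPM on the rich side against 7.91, 16.1 and 23 on the poor side. Kif2c, a kinesin of the spindle, did not, with 23.1, 49.4 and 283 CPM on the rich side against 10.4, 20.8 and 70.3 on the poor side.

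Recombination and chromosome axis genes outside the markers did not follow the marker sum as closely. Their summed CPM was 132, 176 and 493.5 in rich and 97.1, 128 and 179 in poor libraries, and the sides overlapped. Of the 26 genes that have a row, 10 were tested, 7 of these were above 0, none was free of overlap, and the median of 0.28 became -0.01 without HFD 4 and HFD 8. Psmc3ip, a partner of the recombinases, had 23.2, 38.6 and 203 CPM on the rich side against 13.5, 19.3 and 37.9 on the poor side, with a log2 difference of 1.19 ± 0.48, and 0.51 ± 0.28 without the pair. Spermatogonial genes, which mark the cells before meiosis, had a median of -0.22 over 5 tested genes, or -0.26 without the pair, 13 of the 18 were not tested, and Lin28a, Sohlh1 and Pou5f1 had no count in any library.

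In the list of the piRNA pathway outside the markers, which also holds the germ line RNA factors Ddx25 and Adad1, the sides did not overlap. The summed CPM was 477, 630.2 and 2830.2 on the rich side and 229, 329 and 366 on the poor side. Of 11 tested genes 8 were above 0, against 44.5% of all genes, and the median was 1.85, or 1.11 without the pair. The 3 without overlap, against 1.8% of all genes, were Tdrd6, Ddx25 and Adad1. Tdrd6, a Tudor protein of the chromatoid body (chr17:43615335-43630299, minus strand), had 102, 132 and 573 CPM on the rich side against 31.1, 58.1 and 67.8 on the poor side. HFD 4 (573 CPM) and HFD 8 (571 CPM) were nearly level in it, and its log2 difference was 1.98 ± 0.46, or 1.22 ± 0.19 without them. Ddx25, a helicase of the chromatoid body, had 66.8, 83 and 501 CPM on the rich side against 17.8, 31.2 and 43.2 on the poor side and did not overlap either. Adad1, an RNA-binding protein of the germ line listed with them, had 84.2, 117 and 721 CPM on the rich side against 32.9, 46.5 and 72 on the poor side, and Gtsf1, a PIWI cofactor, had 50.4, 92.3 and 552 CPM on the rich side against 18.9, 34.5 and 53.5 on the poor side, an overlap of small size.

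Round spermatid and acrosome genes lay on 1 side as a list. All 34 tested genes were above 0 and 11 did not overlap, against 44.5% and 1.8% of all genes. The median was 1.78, with 1.06 and again 34 of 34 above 0 without HFD 4 and HFD 8. Their summed CPM was 2738, 3520.2 and 18105 in rich and 921, 1639 and 2749.7 in poor libraries, and the single overlap was between HFD 6 (2738) and CD 8 (2749.7). Ldhc, the lactate dehydrogenase of germ cells (chr7:46861203-46878142, plus strand), had 669, 902 and 4203 CPM on the rich side against 152, 379 and 521 on the poor side. Its difference was 1.94 ± 0.51, and 1.12 ± 0.22 without the pair. Papolb, the testis poly(A) polymerase, had 182, 235 and 1253 CPM on the rich side against 63.5, 106 and 133 on the poor side, and Adam3, a surface protein needed for sperm migration, had 129, 184 and 818 CPM on the rich side against 36.1, 65.2 and 99.6 on the poor side. Crisp2 of the acrosome and tail overlapped, with 606, 776 and 3934 CPM on the rich side against 237, 361 and 918 on the poor side. For each CPM of marker sum the libraries carried 2.82 to 3.996 CPM of this list on the rich side and 2.57 to 3.50 on the poor side, a narrow range.

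Late spermatid genes, which build the condensed nucleus and the tail, were higher as a list but ordered the libraries otherwise. Of 48 tested genes 45 were above 0 and 4 did not overlap, against 44.5% and 1.8% of all genes. The median was 1.64, and 0.65 without HFD 4 and HFD 8. Glul, glutamine synthetase, was 1 of the 3 below 0 (-0.76 ± 0.47, or -0.54 ± 0.52 without the pair) and is abundant in many tissues. Summed CPM was 7335, 10668 and 61585 in rich and 4842, 6310.4 and 14017 in poor libraries, and the poor libraries HFD 5 (13329) and CD 8 (14017) exceeded 5 of the 8 rich ones. With Glul left out the sums were 6475, 9230 and 61047 in rich and 2993, 4263 and 13589 in poor libraries. The 2 libraries with the highest marker sums stood in the opposite order here: HFD 8 had 61585 CPM and HFD 4 26242, although HFD 4 led in the meiotic and round spermatid lists. Prm1, the first protamine, showed this in a single gene, with 9276 CPM in HFD 8 and 854 in HFD 4, a 10.9-fold difference, while the other 6 rich libraries had 224 to 929 and the poor ones 121 to 1356. Prm1, Prm2, Tnp1 and Tnp2 together stood at 7.01 CPM per CPM of marker sum in HFD 8, 4.97 in CD 8, 4.86 in HFD 5 and 0.67 in HFD 4, and at 0.84 to 2.29 in the other 12 libraries.

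**Figure D2:**
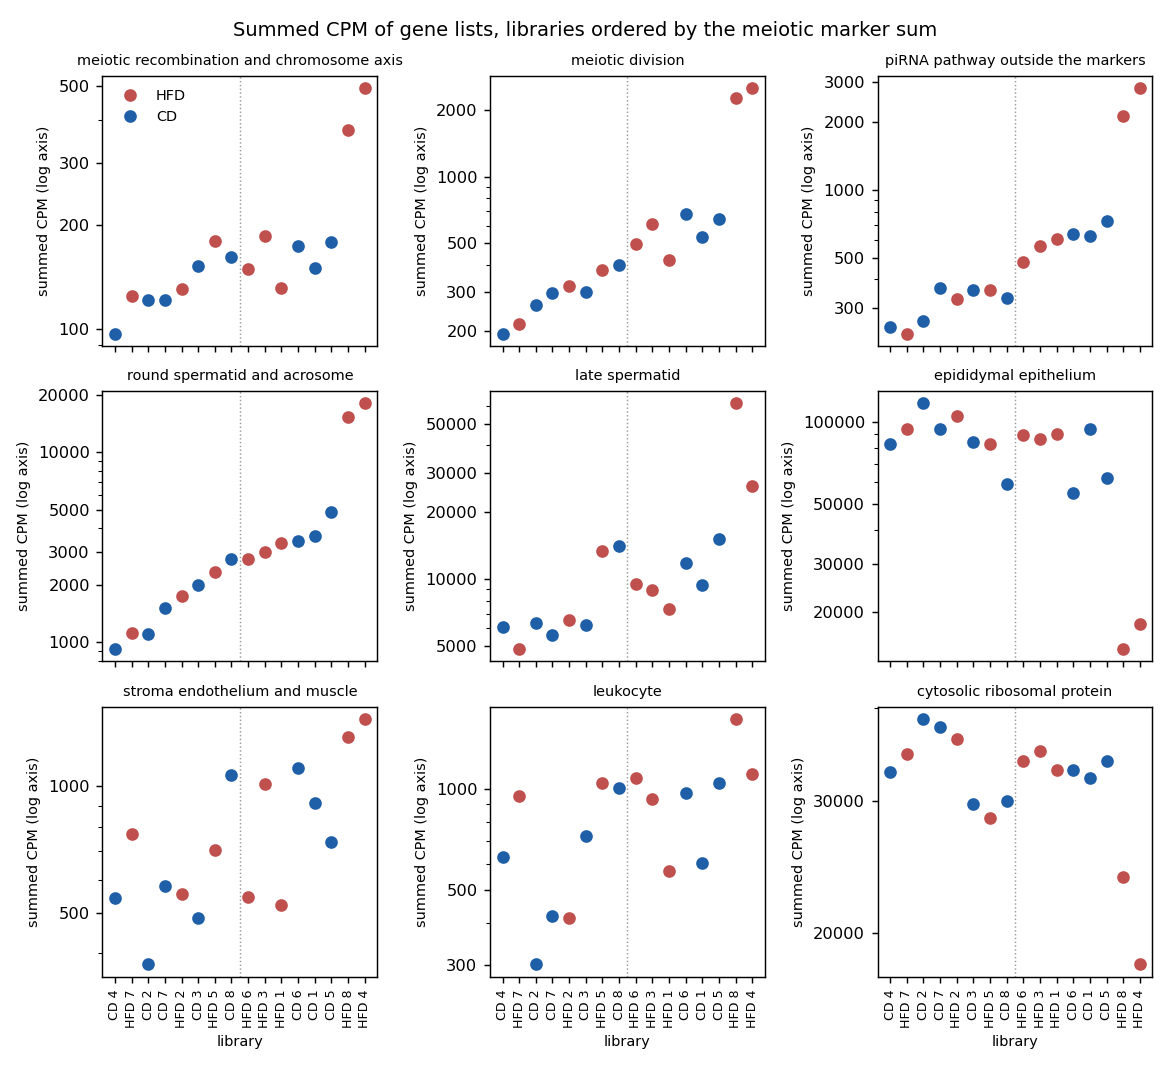
Summed CPM of 9 gene lists (log axes, which differ in range) in each library, ordered by the meiotic marker sum, with HFD in red, CD in blue and the dotted line between poor (left) and rich (right). Division, piRNA and round spermatid lists climb with the order, late spermatid genes peak in HFD 8 (61585), and epididymal and ribosomal protein genes are lowest in HFD 4 and HFD 8.

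The 12 genes with the largest log2 differences among the 236 were led by the clone 4921509C19Rik (2.89 ± 0.71), a clone without overlap at low levels, with 3.99, 7.05 and 26.5 CPM on the rich side against 0, 0.562 and 3.47 on the poor side. Lyzl1, a lysozyme-like acrosome protein, had 9.29, 26.1 and 163 CPM on the rich side against 1.06, 4.75 and 8.93 on the poor side. Zfp57, a zinc finger protein that keeps imprints methylated (chr17:37001163-37010635, plus strand), had 9.72, 14 and 82.3 CPM on the rich side against 1.41, 2.58 and 4.46 on the poor side. In Zfp57, HFD 8 (10.1 CPM) was among the lowest rich libraries and HFD 4 the highest, and the difference was 2.81 ± 0.52, or 2.34 ± 0.35 without the pair. Hyal5, a sperm hyaluronidase, had 12.5, 36.7 and 292 CPM on the rich side against 2.47, 7.98 and 10.9 on the poor side. The others were 4930444P10Rik, 1700016D06Rik, Gm527, Gm5415, Adam30, Efhc2, Tex29 and Gm17359, with log2 differences of 2.56 to 2.88. Transcripts named as testis RIKEN clones made up 24 of the 236, against 348 of all 13124 genes outside the markers. Of the 348 tested clones 319 were above 0, against 44.5% of all genes, with a median of 1.57, or 0.78 without the pair.

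The 5 genes lower in every rich library were Hbegf, Rcan2, Zdhhc15, Fam84b and Oxa1l. Hbegf, a growth factor that binds the EGF receptor, had 0, 1.45 and 4.83 CPM on the rich side against 5.08, 7.47 and 15.8 on the poor side, and no count in HFD 4 or HFD 8. Its difference was -2.26 ± 0.59, and -1.95 ± 0.46 without them. Oxa1l, an insertase of the mitochondrial inner membrane (chr14:54360834-54369673, plus strand), had 27.8, 40.1 and 47.1 CPM on the rich side against 50.1, 58.4 and 70.6 on the poor side, with a difference of -0.69 ± 0.16, nearly the same without the pair (-0.64 ± 0.15). Rcan2, a regulator of calcineurin, had 0.531, 11.2 and 14 CPM on the rich side against 17.3, 20.4 and 29.9 on the poor side. The gap between the sides was small for Fam84b, whose highest rich library had 44.4 CPM and lowest poor library 44.9. It was small as well for Zdhhc15, at 11.07 and 11.14 CPM, and for Hbegf, at 4.83 and 5.08 CPM.

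**Figure D3:**
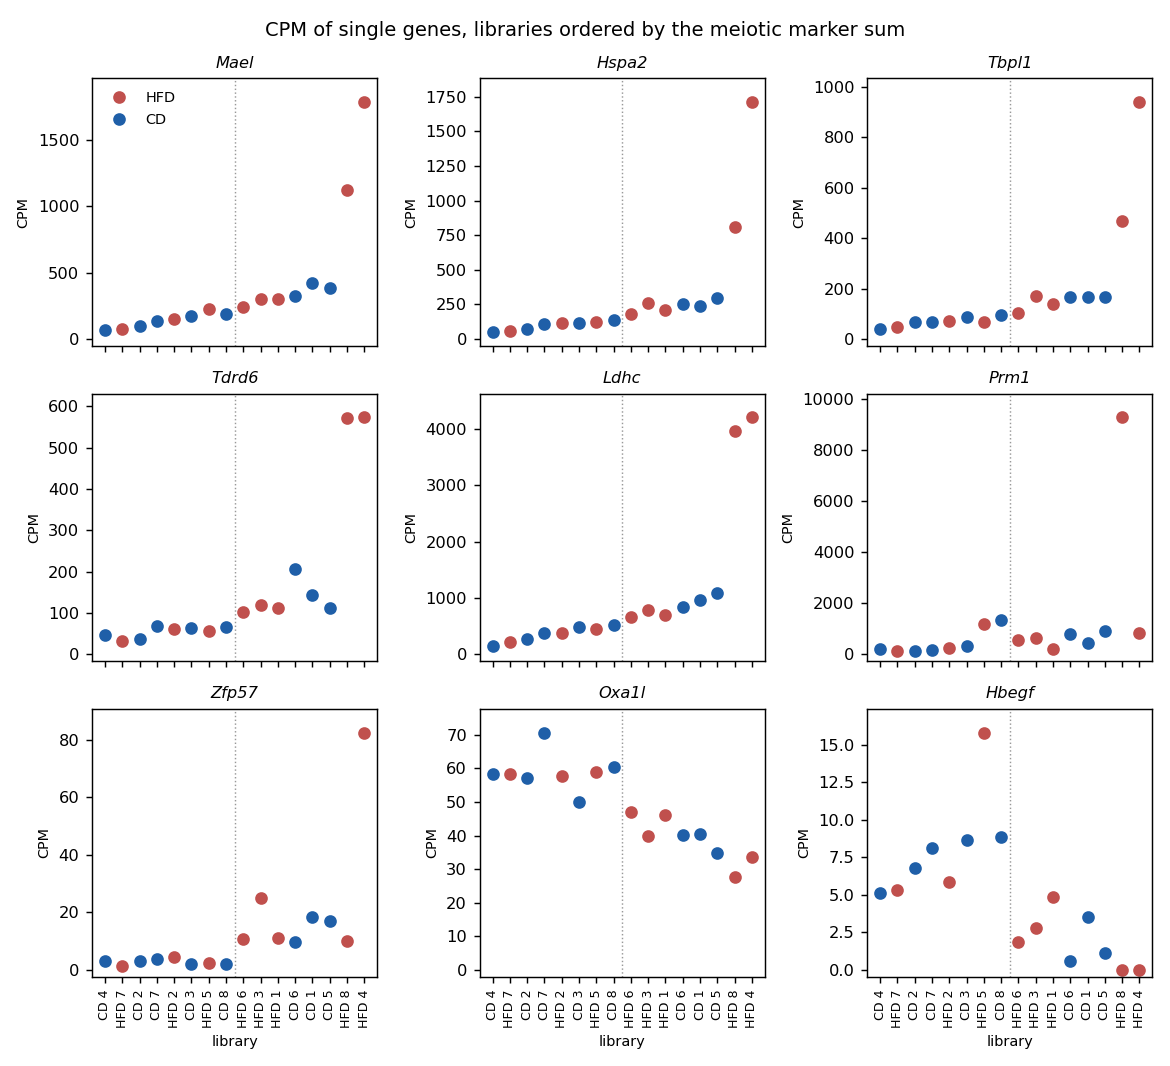
CPM of 9 genes in each library on linear axes from 0, ordered by the meiotic marker sum, HFD in red, CD in blue, the dotted line between poor and rich. Mael, Hspa2, Tbpl1, Tdrd6 and Ldhc are highest in HFD 4 and HFD 8, Prm1 in HFD 8 alone (9276), Zfp57 in HFD 4 (82.3), and Oxa1l and Hbegf are lower in every rich library.

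X-linked genes stood lower in rich libraries than autosomal ones. The median log2 difference was -0.32 over 409 tested X-linked genes and -0.08 over 11951 autosomal genes, with 25.2% and 44.9% above 0. Without HFD 4 and HFD 8 the medians were -0.18 and -0.05. The X held 3 of the 218 placed genes that were higher without overlap (1.38%) and 3.31% of all placed tested genes. Among the placed genes with a log2 difference above 1 its share was close to that of all genes, 48 of 1656 (2.90%). As a share of placed gene counts, X-linked genes took 1.94, 3.81 and 4.5% in rich libraries (lowest, median, highest) and 3.71, 4.42 and 5.08% in poor ones. The low values were those of HFD 4 (1.94%) and HFD 8 (2.18%), and the other 6 rich libraries had 3.74% to 4.50%, inside the range of the poor ones.

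Retrocopies of X-linked genes on autosomes, which supply these enzymes while the X is silent, were set beside their X-linked parents. The summed CPM of the autosomal copies was 410.3, 652 and 2582 in rich and 161, 299.7 and 754 in poor libraries, and 4 of 5 tested copies were above 0 (median 1.32, or 0.57 without the pair). That of the X-linked parents was 508, 1183 and 1542 and 1176, 1333 and 1846, and all 6 were below 0 (median -0.30, or -0.20 without the pair). Cstf2t was the copy below 0 (-0.34), with 1.06 to 33.1 CPM in rich and 15.8 to 47.9 CPM in poor libraries. Pdha2, the autosomal copy of a pyruvate dehydrogenase subunit (chr3:141210004-141212355, minus strand), had 26, 38.2 and 174 CPM on the rich side against 4.24, 13.1 and 24.8 on the poor side, and did not overlap. Its parent Pdha1 had 22.8, 105 and 118 CPM on the rich side against 78.4, 108 and 176 on the poor side, and only HFD 4 (22.8 CPM) and HFD 8 (31.7 CPM) lay below the poor range. Pgk2, a glycolytic kinase, had 328, 559.9 and 2284 CPM on the rich side against 122, 246 and 706 on the poor side, and its parent Pgk1 15.9, 32.1 and 43 CPM on the rich side against 16.7, 35.9 and 76.4 on the poor side. Reads of such near-identical pairs can be split by the counting, so these levels are uncertain. X-linked genes of spermatids went with the autosomal copies: all 8 tested were above 0, with a median of 1.93, or 1.08 without the pair, and Akap4 of the fibrous sheath had 222, 367 and 1943 CPM on the rich side against 75.4, 136 and 502 on the poor side.

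**Figure D4:**
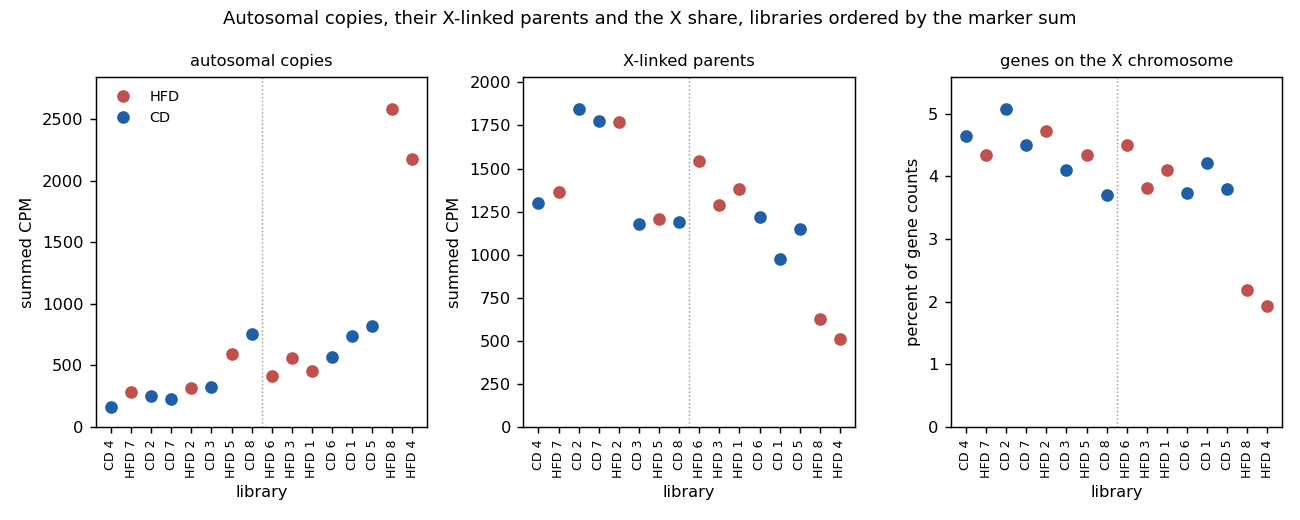
Summed CPM of autosomal copies (left), summed CPM of their X-linked parents (middle) and the percent of placed gene counts on the X chromosome (right), on linear axes from 0, by library in the order of the marker sum, HFD in red and CD in blue. HFD 4 and HFD 8 are highest in the copies and lowest in the parents and the X share (1.94% and 2.18%).

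Marker lists of other cell types also differed between the sides, some by more than the recombination list. Epididymal epithelium genes, secreted proteins that coat sperm in the duct, had summed CPM of 14679.5, 74018 and 94257 in rich and 59204, 88807 and 116517 in poor libraries. Of 34 tested genes 29 were below 0, with a median of -0.47, or -0.24 without HFD 4 and HFD 8, the libraries with 18151 and 14679.5 CPM. Genes of the caput, the first part of the epididymis, had 485, 2263 and 10673 on the rich and 1054, 4841 and 10897 on the poor side, so libraries high and low in caput genes fell on both sides. Gpx5, a caput peroxidase, ranged from 8.61 to 6453 CPM in rich and from 1.39 to 7427 in poor libraries.

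Leukocyte genes had 569.9, 1009 and 1617 CPM in rich and 301, 677 and 1042 in poor libraries (14 of 16 tested above 0, median 0.37, or 0.12 without the pair). Stromal, endothelial and muscle genes had 521, 964 and 1449 and 377, 567 and 1067 (14 of 15 above 0, median 0.51, or 0.22). Sertoli cell genes had a median of -0.34 over 6 tested genes, or -0.25 without the pair, with Amh and Fshr at 0 counts in every library, and their sum was carried by Clu, which the epididymis also makes. Leydig cell genes had a median of -0.24 over 4, which turned to 0.03 without the pair. Of the erythroid genes 2 were tested, Alas2 and Slc4a1, both above 0, with a median of 1.04, or 0.69 without the pair, and the list's summed CPM overlapped widely, with 34.2, 47.4 and 200.3 in rich and 16.3, 40 and 80.8 in poor libraries. Accessory gland genes had at most 11.9 CPM in all, and the 4 globin genes had no count. The share of reads outside annotated features was 58, 66.6 and 76.1% in rich and 59.8, 65.2 and 67.9% in poor libraries, the highest values being 76.1% in HFD 4 and 75.0% in HFD 8, and Rn45s took 3.42, 10.9 and 20.7% and 2.31, 16.3 and 24.1% of gene counts. The part of these lists, of the reads outside features and of Rn45s in the differences was not tested. Gene counts per library were 1882555 to 4760694 on the rich side and 2721022 to 7783981 on the poor side, the lowest in HFD 4.

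**Figure D5:**
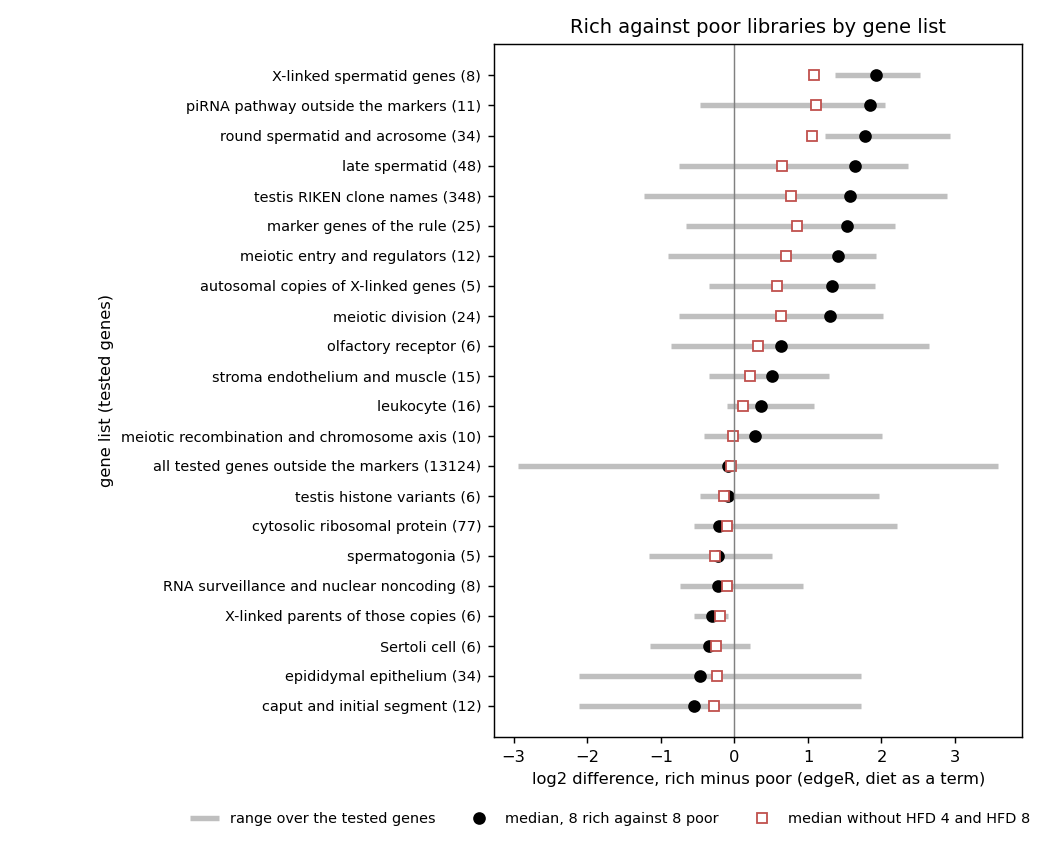
Fitted log2 difference, rich minus poor, for each gene list with at least 5 tested genes (number in brackets): filled circles are medians over 8 rich and 8 poor libraries, open squares medians without HFD 4 and HFD 8, grey bars the range over genes with all libraries. Lists of meiotic entry, division, piRNA, spermatid and autosomal copy genes lie to the right (1.30 to 1.93) and move toward 0 without the pair, while all genes centre at -0.08.

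Promoters of the genes that separated the sides were compared with others by 3 motifs, the MYB core and those of RFX factors and CREM, searched on both strands. The MYB core was in 32.9% of the 219 windows of genes higher without overlap and in 26.4% of the 1626 windows of genes with a log2 difference above 1. The X-box half-site GTTGCCA, a part of the site of RFX factors, was in 11.4% and 9.35%, against 4.35% of windows of tested genes and 4.38% of all windows. It was not more frequent in the short lists, with 1 of 31 windows of marker genes (3.23%), 1 of 33 of round spermatid genes (3.03%) and 0 of 12 of piRNA genes. The cAMP response element TGACGTCA, the site of CREM, was in 2.74% and 3.01%, against 3% and 1.79%. Windows of tested epididymal genes held the MYB core in 7 of 27. RefSeq windows were found for 175 of the 236 genes and for 9891 of the 13124.

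Whether diet went with the marker sum was tested over libraries. The sum was 1643 ± 1653 CPM in HFD and 831 ± 413 CPM in CD libraries (mean ± SD, n = 8 each). On the log2(CPM + 1) scale the diets differed by 0.61, HFD higher, and the exact permutation test (two-sided, 12870 assignments) gave p = 0.274. Without HFD 4 and HFD 8 the difference was -0.03 (exact permutation p = 0.939). The 5 and 3 HFD libraries on the rich and poor sides, against 3 and 5 CD libraries, gave p = 0.619 by Fisher's exact test.

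With the side as a term, no gene differed by diet in edgeR's quasi-likelihood test: 0 of 13149 genes (0%) passed a Benjamini-Hochberg adjusted p of 0.05, the smallest being 0.978. At an unadjusted p under 0.05 there were 343 genes, 261 higher and 82 lower in HFD, and without HFD 4 and HFD 8 there were 385, 209 higher and 176 lower. DESeq2 called 0, with 937 at that unadjusted level. On average that level passes a share of 0.05 of the genes tested when none differs, and each of these counts is below it. The 5 genes with the smallest p were Apoh, Spag11b, Fzd2, Rnf26 and Pbld2. Apoh, a plasma phospholipid-binding protein, had 3.38, 5.71 and 37.7 CPM in HFD and 0.561, 0.998 and 4.05 in CD libraries (lowest, median, highest of 8), a log2 difference of 2.52 ± 0.64, and 1.65 without HFD 4 and HFD 8. Rnf26, a ubiquitin ligase of the endoplasmic reticulum, had 4.55, 8.11 and 13.9 in HFD and 14.8, 16.7 and 19.7 in CD libraries, which did not overlap, a log2 difference of -0.94 ± 0.26, or -0.86 without the pair. Spag11b, an epididymal defensin-like peptide, spanned 0.531 to 632 CPM in HFD libraries.

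Taking the side into the model brought the diet differences of most germ cell lists closer to 0, but not that of the spermatogonia. The median HFD minus CD log2 difference was 1.49 for late spermatid genes and 1.48 for round spermatid genes with diet alone. With the side as a term it was 0.85 and 0.77, and without HFD 4 and HFD 8 as well it was 0.02 and -0.04. The piRNA list went from 1.21 to 0.45 and to -0.10, and the division list from 1.03 to 0.51 and to -0.06. The recombination list hardly moved with the side as a term, from 0.49 to 0.45, and stood at 0.05 without the pair. The spermatogonial list went from 0.24 to 0.50 and to 0.46. These medians are descriptions and carry no test.

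Within the rich side, 5 HFD against 3 CD libraries, edgeR called 0 of 13149 genes by diet (0%), with 938 at an unadjusted p under 0.05, of which 777 were higher in HFD. Without HFD 4 and HFD 8 there were 549, split 292 to 257, and 0 calls. DESeq2 called 0, with 1921 at that unadjusted level. The counts of 938 and 1921 are above a share of 0.05 of the genes tested, and that of 549 without the pair is below it. Mrto4, a factor of ribosome assembly, had the smallest p, with 27.7, 39.9 and 131 CPM in rich HFD and 11.4, 16.2 and 18.6 in rich CD libraries, a log2 difference of 2.14 ± 0.53 (edgeR adjusted p = 0.648), and 1.11 without the pair. Aven, an inhibitor of apoptosis, had 10.1, 13.4 and 118 and 6.11, 6.39 and 8.64, a difference of 2.77 ± 0.76, which was 0.81 without the pair.

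Within the poor side, 3 HFD against 5 CD libraries, edgeR called 0 of 13149 genes (0%), with 66 at an unadjusted p under 0.05, and DESeq2 called 0, with 228. The edgeR count was 250 when HFD 4 and HFD 8, which are on the other side, were left out of the fit. All these unadjusted counts are below a share of 0.05 of the genes tested. Trdn, triadin of the muscle calcium store, had the smallest p, with 6.21, 9.19 and 12.9 CPM in poor HFD and 0.836, 1.41 and 4.62 in poor CD libraries, a log2 difference of 2.12 ± 0.66. The difference of the diet effect between the sides was itself tested, and edgeR called 0 of 13149 genes (0%), with 237 at an unadjusted p under 0.05, and 412 without HFD 4 and HFD 8, with 0 calls. DESeq2, run on 20408 genes without the expression filter, called 1, Tm4sf1, with 661 at the unadjusted level. Each unadjusted count of this comparison is below a share of 0.05 of the genes tested. Tm4sf1, a tetraspanin-like surface protein named after its values were seen, was at 0 to 0.26 CPM in rich HFD, 3.61 to 8.13 in rich CD, 1.55 to 4.59 in poor HFD and 0 to 1.16 in poor CD libraries (DESeq2 adjusted p = 0.0102), and it did not pass edgeR's filter. Cnr2, the cannabinoid receptor of immune cells, had the smallest edgeR p of this comparison, with 0, 3.59 and 7.98 CPM in rich HFD, 12.8, 13.3 and 25.9 in rich CD, 8.34, 13.1 and 23.9 in poor HFD and 1.41, 7.56 and 9.75 in poor CD libraries (edgeR adjusted p = 0.999).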

How the data were processed

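The authors deposited raw counts of reads per gene symbol for each library. Tools listed by the submitters' processing notes, without roles, are HTSeq 1.0.0, STAR and DESeq2 1.0.19, with the build mm10. The annotation is not given in the sources used here, nor is the strand setting. Overlapping genes may therefore share reads. Of 24062 gene rows, 3654 had no count in any library. The 5 summary rows were kept out of totals and tests: 8.02% to 20.1% of reads were in genes, 58.0% to 76.1% in no feature, 15.8% to 30.7% were not unique. Gene counts were 1882555 to 7783981 per library. Amplification copies cannot be told from molecules.

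CPM are counts scaled to gene totals. edgeR 4.0.16 (R 4.3.3) quasi-likelihood tests with TMM factors, robust estimation and its expression filter by diet were fitted to all genes, as diet plus side and as 4 groups of diet and side; Benjamini-Hochberg adjustment ran over all tested genes with a threshold of 0.05. DESeq2 1.42.0 was an alternative. On simulated counts with 50 genes changed per size, the diet term recovered 4 at 2-fold, 34 at 4-fold, 43 at 8-fold and 45 at 16-fold, with 5 false calls among 12829 genes. Within the rich side these were 1, 21, 41 and 47, with 8 false calls among 12871 genes, within the poor side 0, 22, 40 and 45, with 7 among 12911, and for the difference between the sides 0, 6, 23 and 32, with 1 among 12906. The simulated counts were drawn for each gene separately, around a mean shared by all libraries apart from the set changes. Differences of composition such as those of HFD 4 and HFD 8 were absent from them, so recovery in the real data may differ. Positions are from GENCODE M21 and RefSeq, both GRCm38, which mm10 denotes.

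Members, threshold and gene lists were chosen with earlier results of these data known. Named genes were the markers, the 5 most abundant tested genes of each list, the 12 largest differences without overlap in each direction, the 5 smallest p-values per diet comparison and the 10 most abundant genes. Some genes that this rule names are not reported here.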

Additional observations from a re-analysis of the deposited data

Results flagged for a closer look

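Within each diet, the library farthest from the others was compared with the spread of its 8 libraries for 90 combinations of measure and diet, and 8 stood apart; chance sets apart about 1 in 20. The gene total of CD 2 was 7783981, against at most 3704332 in the other CD libraries. HFD 8 had 61585 CPM of late spermatid genes. HFD 4 had 200.3 CPM of erythroid genes, nearly all from Alas2, and the globin genes had no count in any library. CD 4 had 11.9 CPM of accessory gland genes.

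Among single genes, Spag11b had 46.4 CPM in CD 6 and Syne1 had 65.0 CPM in HFD 5. Aven had 118 CPM in HFD 4 and 8.64 CPM in CD 5, each the highest of its diet.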

How the results depend on the processing

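Rich and poor libraries differ by choice, so counts of genes called between them describe the sides and support nothing. By edgeR's quasi-likelihood test 0 genes passed an adjusted p of 0.05, with 2512 at an unadjusted p under 0.05, and the count was 1503 with DESeq2, 272 with at least 10 counts in every library, 786 with gene totals only, 195 with no low-count filter, 1440 with no diet term, 1615 with sides set by the mean log2 of the markers, 2116 with a threshold of 1000 CPM, 401 without HFD 4 and HFD 8, and 0 to 665 when each library was left out in turn. The 236 genes higher without overlap were 157 on CPM with TMM factors, 156 at a threshold of 1000 CPM, 50 with sides set by the mean log2, and 237 to 340 without 1 library. The 5 lower ones were 15 with TMM factors, 8 without HFD 4 and HFD 8, 26 at a threshold of 700 CPM, and 5 to 11 without 1 library. The overlap alternatives were chosen after seeing the data. The difference of the diet effect between the sides gave 1 gene with DESeq2, and edgeR's 0 was also 0 when any library was left out, which was not run with DESeq2. The log2 difference of the marker sum by diet was -0.029 without HFD 4 and HFD 8, and 0.32 to 0.85 without 1 library. The median log2 difference of each list with a tested gene kept its sign with gene totals, DESeq2's size factors and Rn45s left out. No olfactory receptor gene was left at 10 counts in every library, so that list has no value there. The cause of these changes was not tested.

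With the title number as a replicate block, the diet count and the side count were 0, and the marker sum's sign-flip over the 8 numbers gave 0.61 (exact p = 0.391). Libraries with the same number had correlations of -0.41 to 0.62, 4 of 8 over 0.1, and 2 of 8 correlated best with their own number, so the numbers were not taken as pairs. Counts of a few reads limit Dmc1, Spo11 and other low markers, and single genes under a few CPM.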

Other observations

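Ribosomal protein genes of the cytosol were slightly lower in rich libraries: 68 of 77 tested were below 0, with a median log2 difference of -0.21, or -0.10 without HFD 4 and HFD 8. Their summed CPM was lowest in HFD 4 (18159) and HFD 8 and at least 32219 in the other 6 rich libraries, against 28500 to 38655 in poor ones. The other 9 were above 0. Among them Rpl39l, a ribosomal protein copy of male germ cells named after its values were seen, had the largest log2 difference, 2.21, and no overlap. Rpl10l, an autosomal copy of Rpl10 used in meiosis, had 8.76, 19.7 and 89.2 CPM in rich (lowest, median, highest) and 3.11, 7.13 and 12.5 CPM in poor libraries.

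Listed histone variants of the testis went both ways, with 2 of 6 tested genes above 0, values of -0.46 to 1.97 and a median of -0.09, or -0.14 without HFD 4 and HFD 8. H3f3b, a variant used in all cells, had 247, 316 and 469.6 CPM in rich and 214, 281 and 509.8 CPM in poor libraries. Of the olfactory receptor genes 6 of 1102 were tested, 4 above 0 and 2 below, with a median of 0.64, or 0.32 without HFD 4 and HFD 8, and a lowest value of -0.87. Olfr112, a receptor in the major histocompatibility region, had the largest log2 difference of the 6, 2.64 ± 0.61, and 2.02 ± 0.54 without HFD 4 and HFD 8. Its levels were 4.45, 7.45 and 41.4 CPM in rich and 0, 1.40 and 4.85 CPM in poor libraries. Among the most abundant transcripts, Malat1, a nuclear noncoding RNA, had 1557 to 7723 CPM in rich and 4416 to 9455 CPM in poor libraries.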
